A study of Mus musculus with 2 samples.

Results

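Glutathione and thiol antioxidant genes were followed in mouse uterus that lacks cystathionine beta-synthase (Cbs). The 46 genes were taken from a list of enzymes and regulators of glutathione synthesis and use, the thioredoxin system, peroxiredoxins, superoxide dismutases, catalase and the NRF2 response. Of these, 43 had at least 1 probe set annotated to that gene alone, out of 12393 such genes on the array, and they were covered by 72 probe sets. The Cbs null sample came from homozygous Cbs-deficient females, and the control sample from females labelled only as control. All mice were 4 months old, of a mixed C57Bl/6J X OLA129 background and on day 8 of pregnancy, and the tissue was the uterine wall between implantation sites. Each sample was read on a single Affymetrix array, which makes 2 arrays. Whether 1 animal or a pool gave a sample is not stated in the labels, nor is the altered part of Cbs.

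Cbs takes homocysteine into transsulfuration, the route that ends in cysteine, and cysteine is the limiting building block of glutathione. Glutathione is made by glutamate-cysteine ligase and glutathione synthetase, spent by peroxidases and by transferases that couple it to reactive compounds, and returned to its reduced form by glutathione reductase. A parallel system of thioredoxin, thioredoxin reductase and peroxiredoxins reduces disulfides and peroxides. The transcription factor NRF2 (Nfe2l2), held in check by Keap1, switches on many of these genes under oxidative or electrophilic stress.

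Each group had 1 array, so nothing below was checked in a replicate or tested. Values are the deposited signals in intensity units, and ratios are log2 of Cbs null over control. A floor of 43.2, the 40th percentile of all signals, replaced every weaker value, and a gene counted as measured if either array exceeded the floor. A gene was represented by its brightest probe set. The SD of the log2 ratio between probe sets of the same gene was 0.22 over 2757 genes, from probe sets above the floor on both arrays. It was 0.16 when only probe sets over 4 times the floor on both arrays were used, and 0.29 with only the dimmer ones. This covers measurement within the arrays and not variation between mice. Signals of different genes come from different probes and are not set against each other.

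The median signal was 75.6 in the Cbs null sample and 74.55 in the control sample. The targeted gene was weak. Its brighter probe set read 42.6 in the Cbs null sample, just below the floor, and 79.8 in the control sample. The other Cbs probe set read 25.1 in the Cbs null sample and 39.8 in the control sample, neither of them above the floor. The lower signal is in the sample labelled Cbs null, although where these probe sets lie relative to the altered part is not known. Uterine genes were present, with Hoxa11 at 1077 in the Cbs null sample and 1082 in the control sample, and the 6 trophoblast marker genes on the array read at most 28.7 in the Cbs null sample and 25.5 in the control sample, all under the floor.

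The antioxidant genes did not move together. A few enzymes that use glutathione were higher in the Cbs null uterus, led by the peroxidase gene Gpx2 (3.32-fold) and the transferase gene Gsta4 (2.92-fold). The plasma-type peroxidase gene Gpx3 was 1.63-fold lower. Superoxide dismutases, catalase, thioredoxins, Nfe2l2 and Keap1 read almost the same in both samples in their brightest probe sets. So did the NRF2 target Nqo1, a single gene just above the floor that does not stand for all NRF2 targets. In a separate list of other NRF2 targets and partners, 16 of 24 measured genes were above 0, against 53.3% of all measured genes. The log2 ratios of that list ran from -1.12 to 0.91, with a median of 0.045. Of the 43 genes, 38 were measured, each above the floor on both arrays, and 5 were below the floor on both (Slc7a11, Gsta2, Gsta3, Gstm6 and Hmox1). Prdx1, Prdx5 and Prdx6 had no probe set of their own here.

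Of the 38 measured genes, 2 were at least 2-fold higher in the Cbs null sample (5.26%), against 0.797% of the 8410 measured genes of the whole array. None was at least 2-fold lower, against 0.713% of the whole array. At 1.5-fold, 4 were higher (10.5%, against 3.60% of all measured genes) and 1 was lower (2.63%, against 3.39%). The median log2 ratio was 0.016, beside 0.019 for all measured genes. Of the 38, 21 were above 0 (55.3%, against 53.3% of all measured genes) and 17 below 0. The median of the list thus lay next to that of the array, and the share past the size rule rests on very few genes.

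**Figure D1:**
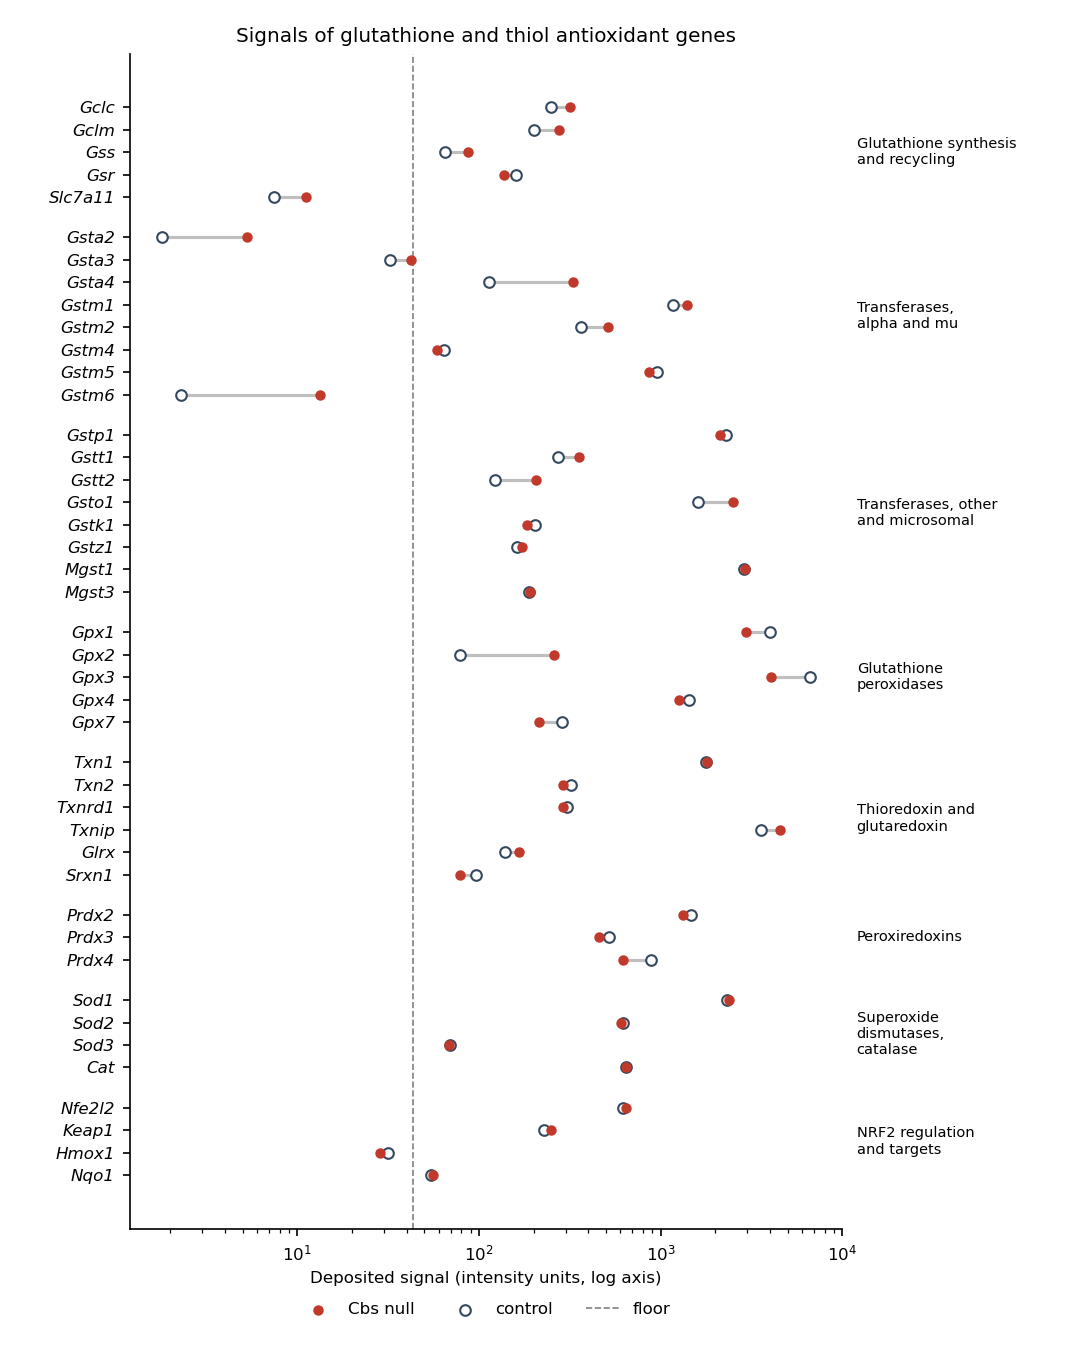
Deposited signals of the 43 antioxidant genes that the array covers (horizontal log axis, intensity units), 1 row per gene grouped by role, filled red for Cbs null and open for control, with the floor of 43.2 as a dashed line. Gpx2 and Gsta4 have the widest gaps among genes above the floor, whereas the symbols of Sod1, Cat, Txn1 and Mgst1 nearly coincide.

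Genes of glutathione synthesis were slightly higher, none by 1.5-fold. Gclc, the catalytic subunit of glutamate-cysteine ligase, read 316 in the Cbs null sample and 250 in the control sample, a log2 ratio of 0.34, and its other probe set stood at 0.10. Gclm, the modifier subunit of the same enzyme, read 275 in the Cbs null sample and 201 in the control sample, a log2 ratio of 0.46. All 3 probe sets of this rate-limiting enzyme thus pointed the same way, by at most 0.46.

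Gss, glutathione synthetase, which adds the final glycine, read 87.5 in the Cbs null sample and 64.7 in the control sample, a log2 ratio of 0.44 at a signal close to the floor. Gsr, which regenerates reduced glutathione, gave opposite answers in its probe sets. The brighter one read 138 in the Cbs null sample and 160.3 in the control sample (log2 ratio -0.22), and the dimmer one read 100.4 in the Cbs null sample and 76.8 in the control sample (log2 ratio 0.39). No direction is given for Gsr. Slc7a11, the cystine importer that feeds glutathione synthesis, was below the floor in both samples, at 11.1 in the Cbs null sample and 7.4 in the control sample.

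Among the alpha and mu class transferases, Gsta4 stood apart. Gsta4, which conjugates the lipid peroxidation product 4-hydroxynonenal, read 332 in the Cbs null sample and 113 in the control sample, a log2 ratio of 1.55 in its single probe set. The other alpha class genes gave no measurable signal in either sample. Gsta2 read 5.3 in the Cbs null sample and 1.8 in the control sample, and the brighter Gsta3 probe set read 42.3 in the Cbs null sample and 32.5 in the control sample.

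The mu class genes lie side by side on chromosome 3, and their ratios did not run in a common direction. Gstm2 read 511 in the Cbs null sample and 364 in the control sample, a log2 ratio of 0.49. Gstm1 read 1403 in the Cbs null sample and 1173 in the control sample in its brightest probe set, a log2 ratio of 0.26. Of the other 3 Gstm1 probe sets, 1 stood at 0.32, but the dimmer ones stood at -0.48 and -0.31.

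Gstm5 read 859 in the Cbs null sample and 956 in the control sample, and Gstm4 read 58.8 in the Cbs null sample and 64.6 in the control sample, with log2 ratios of -0.15 and -0.14. In RefSeq's order along the chromosome (Gstm5, Gstm7, Gstm6, Gstm3, Gstm2, Gstm1, Gstm4), the higher genes Gstm2 and Gstm1 were neighbours. Gstm7, which is not on the list, stood at -0.73. These genes are close copies of each other, so probe sets may share targets and the single values are uncertain. Gstm6 was below the floor in both samples.

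Other soluble transferases included the remaining genes higher by 1.5-fold. Gsto1, an omega class enzyme with thioltransferase and dehydroascorbate reductase activity, read 2517 in the Cbs null sample and 1598.5 in the control sample, a log2 ratio of 0.65. Its other probe set read 2107 in the Cbs null sample and 1185 in the control sample, a log2 ratio of 0.83. Gsto1 was the only member past 1.5-fold with more than 1 probe set, and both of its probe sets passed 1.5-fold. At these signals the within-array SD was 0.16, so both ratios were several times that SD.

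Gstt2, a theta class transferase, read 206 in the Cbs null sample and 122 in the control sample, a log2 ratio of 0.75 in 1 probe set. Gstt1, in the same cluster on chromosome 10, read 355 in the Cbs null sample and 272 in the control sample, a log2 ratio of 0.38. Gstt4, which lies between Gstt1 and Gstt2 in RefSeq's order, gave no value here. Gstt3, in the same cluster but not on the list, stood at -0.34. The measured theta genes thus did not all lie on the same side of 0. Gstt3 was dim, however, at 91.2 in the Cbs null sample and 115.1 in the control sample.

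Gstp1, the pi class transferase, read 2114 in the Cbs null sample and 2298 in the control sample. Gstk1, a mitochondrial and peroxisomal transferase, stood at -0.15, and Gstz1, which also acts in tyrosine breakdown, at 0.10. The membrane-bound enzymes did not differ beyond the within-array SD. Mgst1 read 2920.5 in the Cbs null sample and 2891 in the control sample, and Mgst3 read 191 in the Cbs null sample and 189 in the control sample. A further probe set of each read 10.3 or less in both samples and carries no information.

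The 5 glutathione peroxidases on the list split, with 1 higher and 4 lower. Gpx2, a selenoenzyme best known from the gut epithelium, read 260.5 in the Cbs null sample and 78.5 in the control sample, a log2 ratio of 1.73. With the floor at the 60th percentile, which lies above its control signal, the Gpx2 ratio was 1.11. Gpx3, the secreted selenoenzyme that circulates in plasma, read 4073 in the Cbs null sample and 6649 in the control sample, a log2 ratio of -0.71. Gpx3 was thus the only antioxidant gene at least 1.5-fold lower, at a signal where the within-array SD was 0.16.

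The remaining peroxidases of the list were lower by smaller amounts. Gpx1, the cytosolic enzyme of most cells, read 2956 in the Cbs null sample and 4012 in the control sample, a log2 ratio of -0.44. Gpx7, an endoplasmic reticulum enzyme that uses no selenium, read 213 in the Cbs null sample and 288 in the control sample, a log2 ratio of -0.43. Gpx4, which reduces phospholipid hydroperoxides and guards against ferroptosis, stood at -0.18 and -0.36 in its probe sets. Across these 5 genes the Cbs null sample therefore had more Gpx2 signal and somewhat less of the other 4. The smaller Gpx4 ratio, -0.18, was close to the within-array SD of 0.16 at such signals, and no replicate was there to test the split. Of the peroxidase genes outside the list, Gpx8 read 565 in the Cbs null sample and 747 in the control sample (log2 ratio -0.40). Gpx5 and Gpx6 were below the floor in both samples.

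**Figure D2:**
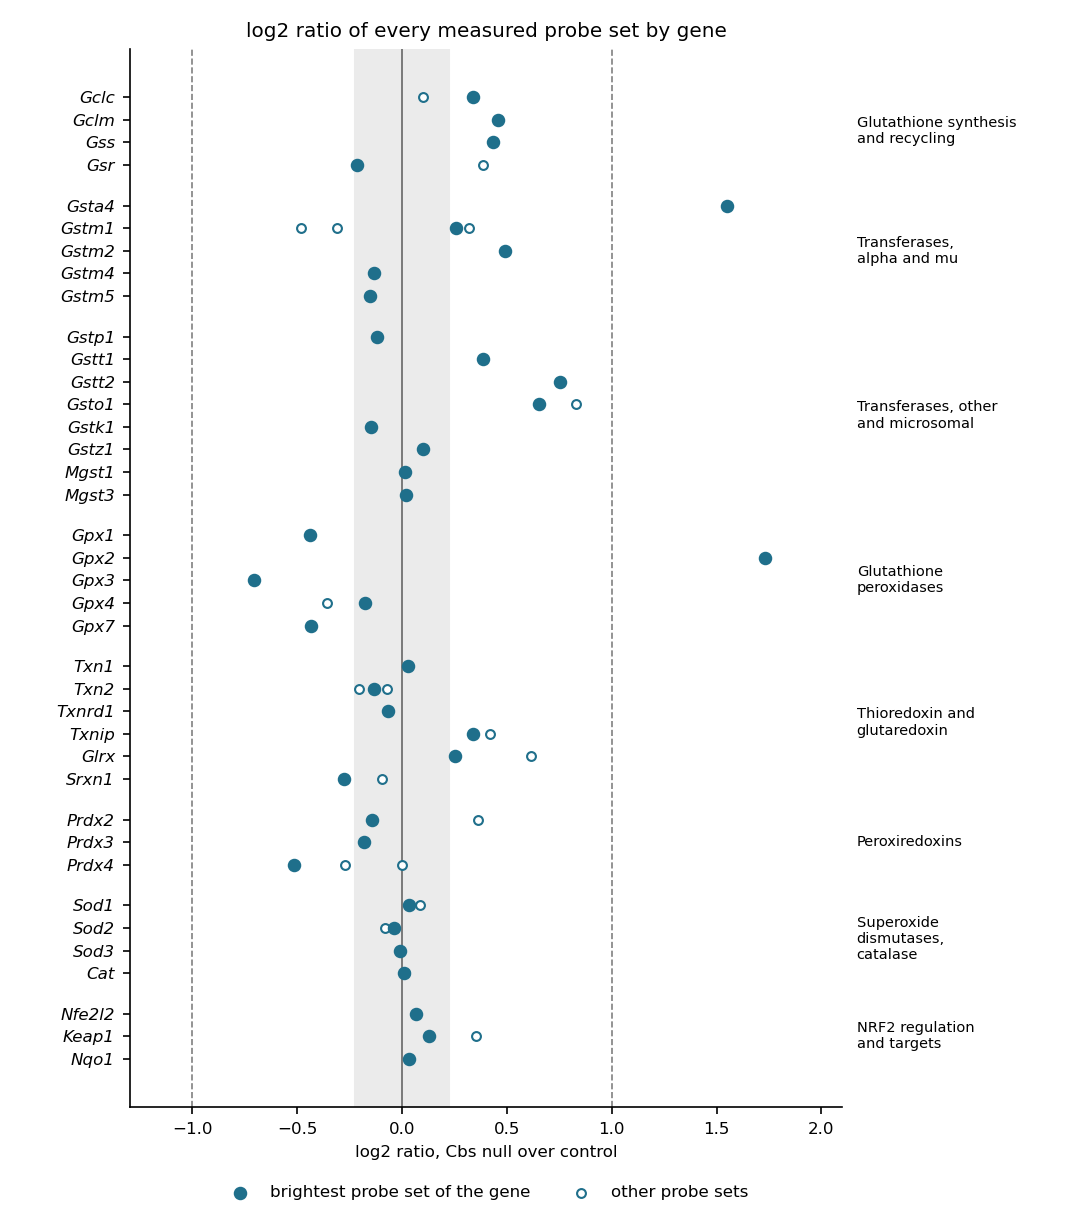
log2 ratio of Cbs null over control for every measured probe set of each antioxidant gene (horizontal axis), grouped by role, filled for the brightest probe set of a gene and open for others. The grey band is 1 within-array SD (0.22) on either side of 0 and the dashed lines mark 2-fold. Gpx2 and Gsta4 lie past the right dashed line, Gpx3 lies furthest left, and Gsr, Gstm1 and Prdx2 have probe sets on both sides of 0.

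The 250 bases before the start site of the genes past 1.5-fold are shown where RefSeq's promoter table (GRCm38.p6) holds them, so that the genes that were higher, Gpx2 and Gsto1, can be read beside Gpx3, which was lower. Each runs 5′ to 3′ on the strand of the gene, and none holds the antioxidant response element letters TGACNNNGC, which NRF2 with a small MAF protein is known to bind, on either strand. The table holds no promoter for Gsta4 or Gstt2, so these genes are named only and were not searched. The GC content was 49.2% for Gpx2 (minus strand, chr12:76795555-76795804), 60% for Gsto1 (plus strand, chr19:47854723-47854972) and 55.2% for Gpx3 (plus strand, chr11:54902604-54902853).
Gpx2: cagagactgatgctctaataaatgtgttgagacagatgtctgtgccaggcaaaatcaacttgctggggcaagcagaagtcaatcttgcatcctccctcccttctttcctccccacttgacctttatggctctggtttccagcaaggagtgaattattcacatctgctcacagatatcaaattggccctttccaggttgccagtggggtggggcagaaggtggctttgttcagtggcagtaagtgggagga
Gsto1: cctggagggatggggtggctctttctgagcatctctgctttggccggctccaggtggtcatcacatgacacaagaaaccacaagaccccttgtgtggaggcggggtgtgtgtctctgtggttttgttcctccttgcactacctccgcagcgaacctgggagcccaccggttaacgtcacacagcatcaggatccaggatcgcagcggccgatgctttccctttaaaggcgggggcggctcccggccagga
Gpx3: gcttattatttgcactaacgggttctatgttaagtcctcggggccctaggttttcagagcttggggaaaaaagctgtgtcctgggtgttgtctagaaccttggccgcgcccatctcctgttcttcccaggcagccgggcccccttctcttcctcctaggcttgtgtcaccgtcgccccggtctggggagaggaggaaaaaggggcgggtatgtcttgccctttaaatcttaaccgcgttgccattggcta

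In the thioredoxin and glutaredoxin system no gene reached 1.5-fold in its brightest probe set. Txnip, which binds and inhibits thioredoxin and also restrains glucose uptake, read 4545 in the Cbs null sample and 3590 in the control sample, a log2 ratio of 0.34. Its other probe set stood at 0.42, so both lay on the higher side. Txn1, cytosolic thioredoxin, read 1813 in the Cbs null sample and 1777 in the control sample.

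The mitochondrial thioredoxin gene Txn2 lay between -0.21 and -0.07 in its 3 probe sets, and Txnrd1, the selenoenzyme that recycles cytosolic thioredoxin, stood at -0.07. Glrx, glutaredoxin, read 165 in the Cbs null sample and 139 in the control sample (log2 ratio 0.25), and its dimmer probe set read 83.7 in the Cbs null sample and 54.6 in the control sample (0.62). Srxn1, sulfiredoxin, which repairs overoxidised peroxiredoxins, read 79.1 in the Cbs null sample and 95.8 in the control sample (log2 ratio -0.28). Only the dimmer Glrx probe set passed 1.5-fold in this group.

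All 3 peroxiredoxins that could be read were slightly lower in their brightest probe sets. Prdx4, the peroxiredoxin of the endoplasmic reticulum, read 617 in the Cbs null sample and 882 in the control sample, a log2 ratio of -0.51, but its dimmer probe sets stood at -0.27 and close to 0. Prdx3, the mitochondrial enzyme, stood at -0.18. Prdx2, a cytosolic enzyme abundant in red cells, read 1331 in the Cbs null sample and 1471 in the control sample (log2 ratio -0.14), while its dimmer probe set stood at 0.36. Prdx1 was represented only by 5 probe sets shared with the predicted gene Gm21399, which lay between -0.20 and -0.02 and are not counted.

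Superoxide dismutases and catalase differed least of all the groups. Sod1, the cytosolic copper and zinc enzyme, read 2379 in the Cbs null sample and 2323 in the control sample. Sod2, the mitochondrial manganese enzyme, read 607 in the Cbs null sample and 624 in the control sample. Sod3, the extracellular enzyme, read 68.5 in the Cbs null sample and 68.9 in the control sample, and Cat, which breaks down hydrogen peroxide in peroxisomes, read 647 in the Cbs null sample and 644 in the control sample. The 4 log2 ratios lay between -0.04 and 0.03, far inside the within-array SD.

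Nfe2l2 and Keap1, the regulators on the list, stayed inside the within-array SD of 0.22 in their brightest probe sets. Bach1, a repressor of NRF2 targets that is not on the list, stood at 0.32 and 0.48. Nfe2l2 read 648 in the Cbs null sample and 618.5 in the control sample, a log2 ratio of 0.07. Keap1 read 250.1 in the Cbs null sample and 229 in the control sample (log2 ratio 0.13), with 0.35 in its dimmer probe set. Nqo1, a quinone reductase widely used as a readout of NRF2, read 56.0 in the Cbs null sample and 54.7 in the control sample, just above the floor. Hmox1, heme oxygenase, was below the floor at 28.4 in the Cbs null sample and 31.6 in the control sample, so no ratio is given for it.

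The antioxidant response element was looked for in the promoters as well, since NRF2 targets make up much of the list. RefSeq's table (GRCm38.p6) held windows of 250 bases before to 50 after the start site for 39 of the 46 genes. The letters TGACNNNGC stood on either strand in 9 of them (23.1%), against 14.0% of all 27025 genes in the table. Of the list genes that were also measured, 7 had a match and 26 had none, beside a match in 16.8% of all measured genes in the table. The 9 matches are shown with 10 bases on each side, 5′ to 3′ on the strand of the gene, with the match in capitals, where GCNNNGTCA is the same motif read on the opposite strand.
Gclm: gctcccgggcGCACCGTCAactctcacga
Gsta3: aactcaggcaTGACATTGCatttttcttc
Gstm5: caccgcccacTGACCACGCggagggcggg
Mgst1: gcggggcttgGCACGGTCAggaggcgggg
Txnrd1: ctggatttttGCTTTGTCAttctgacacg
Srxn1: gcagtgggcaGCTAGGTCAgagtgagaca
Prdx1: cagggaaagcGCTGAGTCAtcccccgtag
Sod1: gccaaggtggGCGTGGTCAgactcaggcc
Nfe2l2: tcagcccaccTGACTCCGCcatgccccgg

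The match in Prdx1 was the 1 of 9 that also holds the AP-1 letters TGACTCA. The first base of the match lay 134 bases before the start site in Gclm (plus strand, chr3:122245413-122245441 as printed) and 92 bases before it in 1 of 3 Txnrd1 windows (plus strand, chr10:82859104-82859132). In Srxn1 it lay at base 29 after the start (plus strand, chr2:152105542-152105570), and in Nfe2l2 it lay 240 bases before it (minus strand, chr2:75704885-75704913). The other matches lay 121 bases before the start in Gsta3 (plus strand, chr1:21240454-21240482), 42 in Gstm5 (plus strand, chr3:107895802-107895830) and 133 in Prdx1 (plus strand, chr4:116685456-116685484). In Mgst1 (plus strand, chr6:138140461-138140489) and Sod1 (plus strand, chr16:90220696-90220724) the distance was 56 bases. The 7 measured genes with a match had a median log2 ratio of 0.01, from -0.28 for Srxn1 to 0.46 for Gclm, and the 26 measured genes without one also had a median of 0.01. A match is only a stretch of letters. Of the genes past 1.5-fold, only Gpx2, Gsto1 and Gpx3 had a window, and none of these held a match.

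Beyond the list, 88 further genes of glutathione handling, thiol reduction and the NRF2 response were examined, of which 75 were on the array and 64 measured. None was at least 2-fold higher, against 0.797% of all measured genes. Me1 was the 1 gene at least 2-fold lower, against 0.713% of all measured genes. The median log2 ratio of the 64 was 0.04. Me1, malic enzyme, which supplies NADPH and is also a lipogenic gene, read 344 in the Cbs null sample and 748 in the control sample, 2.18-fold lower. Its other probe set read 344 in the Cbs null sample and 706 in the control sample, 2.05-fold lower. Me1 was thus lower in both of its probe sets. Other NADPH-producing enzymes were less far from 0, with Pgd at -0.33 and Idh1 at -0.17 in their brightest probe sets.

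At 1.5-fold, 4 of the 64 were higher, against 3.60% of all measured genes, and 2 were lower, against 3.39%. Cbr3, a carbonyl reductase, read 406 in the Cbs null sample and 216 in the control sample (log2 ratio 0.91). Sesn3, a sestrin, stood at 0.83, Chac2, which degrades glutathione, at 0.67 and Anpep, an aminopeptidase of the gamma-glutamyl cycle, at 0.62. The lower genes were Me1 and Gstm7. These 4 higher genes were named after their values were seen.

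The genes with the strongest signals in these lists were Clic4, Anpep, Selenop, Selenow, Fth1 and Tkt. Clic4, a chloride channel protein of the transferase fold, stood at 0.06 in its brightest probe set but at -0.65 and -0.55 in the others, so no direction is given for it. Selenop, the plasma selenium carrier, stood at 0.07 in its single probe set, and Selenow at -0.10 and 0.14. Fth1, ferritin heavy chain, stood at -0.16 and -0.02, and the transketolase gene Tkt at -0.18 and -0.36. Bach1, which represses NRF2 targets, stood at 0.32 and 0.48, and its partner Mafg at 0.04 and -0.04. Selenop, Selenow, Fth1 and Mafg thus stayed inside the overall within-array SD of 0.22 in every measured probe set.

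**Figure D3:**
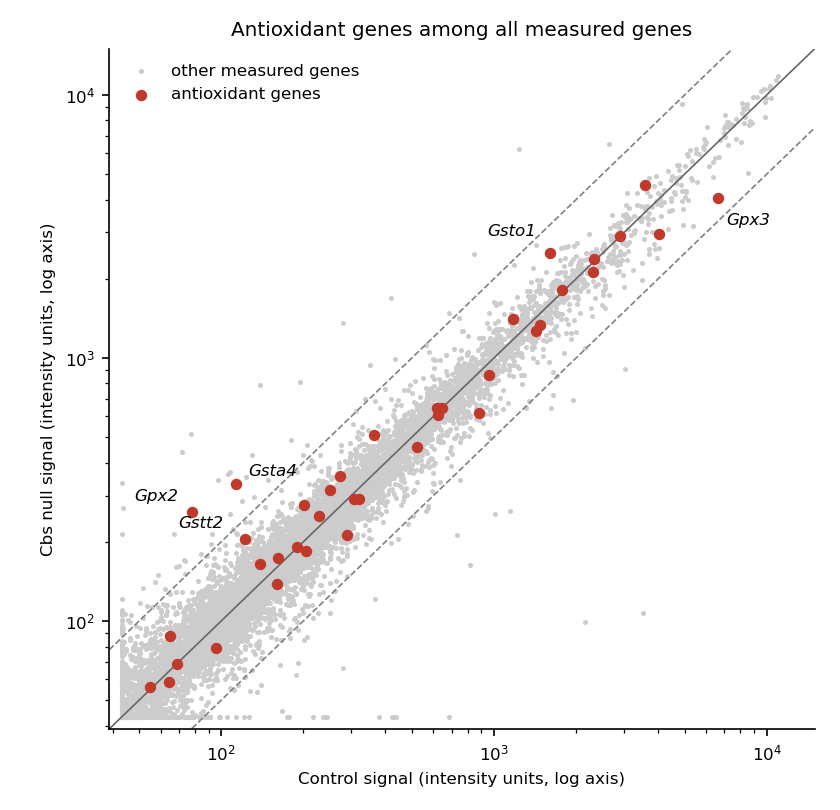
Signal in the Cbs null sample (vertical log axis, intensity units) against signal in the control sample (horizontal log axis, intensity units) for 8410 measured genes in grey and the 38 measured antioxidant genes in red, with values raised to the floor of 43.2. The solid line marks equal signal and the dashed lines mark 2-fold, and the 5 labelled genes are those at least 1.5-fold apart, of which only Gpx2 and Gsta4 lie outside the dashed lines.

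Marker genes of several cell types differed between the samples as well. Uterine epithelium markers were higher, with all 20 of 20 above 0, against 53.3% of all measured genes, and a median log2 ratio of 0.61. Of these markers, 6 were at least 2-fold higher, against 0.797% of all measured genes. The summed signal of all 20 was 15758 in the Cbs null sample and 7198.5 in the control sample. Without the secreted inhibitor gene Spink1 it was 9539.5 in the Cbs null sample and 5964 in the control sample. The 6 were Calb1 (at least 7.73-fold, with the control signal below the floor), Spink1 (5.04-fold), Ovgp1 (3.43-fold), Muc1 (at least 2.80-fold, likewise), Ltf (2.69-fold) and Cldn3 (2.07-fold). Krt18 read 1626 in the Cbs null sample and 999 in the control sample, and Epcam, a surface marker of epithelium, read 637.5 in the Cbs null sample and 522 in the control sample. No epithelium marker was at 0, and 4 were below the floor in the control sample only. Gpx2 and Gsta4 moved in the same direction as these markers, and the markers' part in that result was not tested.

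Macrophage and dendritic cell markers were higher too, with 15 of 15 measured above 0, against 53.3% of all measured genes. Their median was 0.56, and none was at least 2-fold higher, against 0.797% of all measured genes. Their summed signal was 9464 in the Cbs null sample and 6448 in the control sample, and 0.49 and 0.46 were the log2 ratios of Cd74 and H2-Aa, which serve antigen presentation. Smooth muscle markers were lower, with 11 of 11 measured below 0 and a median of -0.30, at a summed signal of 44214 in the Cbs null sample and 53458 in the control sample, and Acta2 and Tpm2 stood at -0.07 and -0.18. Adipocyte markers were lower in 8 of 8, with a median of -0.32 and summed signals of 15007 in the Cbs null sample and 18606 in the control sample, and Car3 and Fabp4 stood at -0.16 and -0.37. Gpx3, Gpx1 and Gpx7 moved in the direction of these lower lists and Gsto1 in that of the higher ones, and the part of any cell type in those ratios was not tested.

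Other marker lists differed in places. Decidual stroma markers had a median of 0.01, with 3 of 14 measured genes at least 2-fold lower, against 0.713% of all measured genes. Tdo2 was at least 15.9-fold and Prl8a2 at least 9.82-fold lower, both with Cbs null signals below the floor. Fst was 3.95-fold lower, while Dcn and Igfbp4 stood at 0.26 and 0.09. Natural killer cell markers had 6 of 10 at least 2-fold lower, all of them granzyme genes (Gzma, Gzmb, Gzmd, Gzme, Gzmf and Gzmg). Of the other 4, Klra8 was 1.66-fold higher (log2 ratio 0.73) and Klrd1 stood at -0.11, so Klra8 and Klrd1 did not follow the granzyme genes. Nkg7 (log2 ratio 0.09) and Prf1 (-0.22) read only 46.1 and 50.6 in the control sample, close to the floor. A 2-fold decrease could not be seen in Nkg7 or Prf1, so neither shows whether markers other than granzymes were lower. Endothelium markers had a median of -0.05, with Vwf and Esam at 0.65 and 0.15, and only 2 erythroid genes were measured, Hbb-b2 at -0.20 and Alas2 at 0.72. In a sample of whole tissue, fewer cells of a type and less RNA per cell cannot be told apart.

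**Figure D4:**
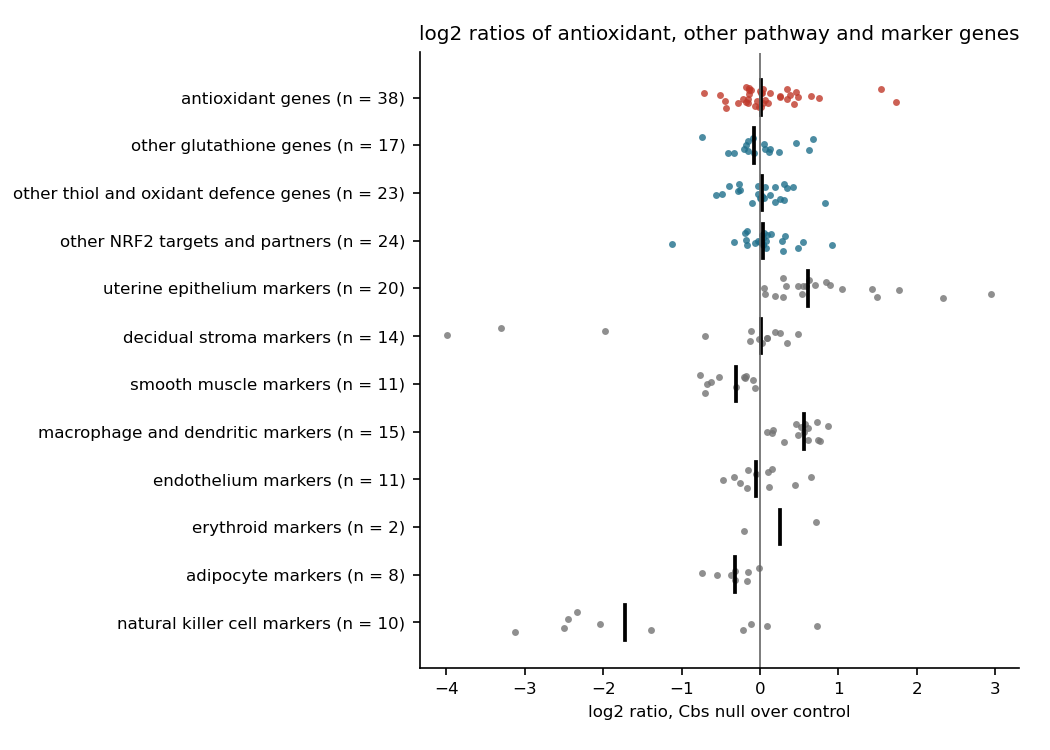
log2 ratio of Cbs null over control (horizontal axis) for each measured gene of the antioxidant list (red), 3 lists of other pathway genes (blue) and 8 lists of cell type markers (grey), with a black bar at each median. The antioxidant median of 0.016 lies at 0 beside 0.61 for uterine epithelium, 0.56 for macrophage and dendritic cells and -0.30 for smooth muscle. The natural killer cell median, at -1.72, lies furthest from 0.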

How the data were processed

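Biotin-labelled cRNA was prepared from 2 microg of total RNA of each uterine sample, per the labels' protocols. The deposited table holds 1 linear intensity for each of 22690 probe sets and array. The authors used GCOS 1.4, per the submitters' processing notes. How probe sets were summarised and to what target arrays were scaled is not given in the sources. The 2% trimmed means were 200.07 (Cbs null) and 200.08 (control), so intensities were used as deposited, and a difference is one against the average of the array.

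Genes were named from the platform annotation, which gave 1 symbol for 20380 probe sets, several for 691 and none for 1555, beside 64 control probe sets. Gene identifiers of 20351 of the first kind matched RefSeq (GRCm38.p6). Log2 ratios were computed with Python 3.11.15, numpy 2.4.6 and pandas 2.3.3, and the procedure was tested on simulated data. By rule, both signals are given for genes at least 1.5-fold apart and for the brightest 2 of each role. Of other pathway and marker genes the rule takes those at least 2-fold apart (up to 4 markers a list) and the brightest 2 of a list. Further pathway and marker genes, including other granzyme and epithelium genes, were named after their values were seen. The antioxidant genes, other lists, floor and settings were chosen with earlier results of these data known. Other floors, a pseudocount, scalings, probe set rules and size rules were tried. Protein sequences were not used here. The number of arrays limits the precision.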

Additional observations from a re-analysis of the deposited data

How the results depend on the processing

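Alternatives were a floor at the 20th percentile, a floor at the 60th, a pseudocount of 16, quantile normalization, centring on the median, averaging all probe sets of a gene, dropping those that end in _s_at or _x_at, and size rules of 1.5-fold and 3-fold. The count of antioxidant genes at least 2-fold higher stayed at 2 and the count lower at 0 under the first 7 of these. With 1.5-fold the counts were 4 and 1, and with 3-fold they were 1 and 0, as a change of rule must give. The median log2 ratio ranged from -0.003 after centring to 0.022 with the floor at the 20th percentile. Gpx2 ranged from 1.11, with the floor at the 60th percentile, to 1.73, and Gsta4 from 1.43, with the pseudocount, to 1.55. The ranges were 0.68 to 0.75 for Gstt2, 0.64 to 0.83 for Gsto1 and -0.76 to -0.70 for Gpx3. With probe sets averaged, Gsr stood at 0.086, Gstm1 at -0.054 and Prdx2 at 0.11, each on the other side of 0. Of the other pathway genes, for which the alternatives were added after seeing the data, 2 were at least 2-fold higher with the floor at the 20th percentile. At 1.5-fold 4 were higher and 2 lower, and at 3-fold 0 were lower. Over the whole array, 67 higher and 60 lower at 2-fold became 303 and 285 at 1.5-fold. A floor at the 20th percentile gave 250 and 218, and the floor at the 60th gave 30 and 31. No paired analysis was possible because each group has 1 array, and no replicate could be left out. Genes near the floor, such as Gss, Nqo1 and Sod3, cannot show a 2-fold decrease.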

Other observations

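Selenium-dependent enzymes were looked at across the array, in a list written after the values of its members were known. Selenoproteins carry selenocysteine, and their synthesis depends on selenium supply. All 16 listed genes were measured, with a median log2 ratio of -0.01 in their brightest probe sets. Of these, 8 were above 0 and 8 below 0, where 53.3% of all measured genes were above 0. On that basis Gpx2 was the 1 gene at least 1.5-fold higher, against 3.60% of all measured genes. Gpx3 was the 1 at least 1.5-fold lower, against 3.39%. Both are also on the antioxidant list. Among the 11 that are not on the antioxidant list the ratios ran from -0.57 to 0.31. Msrb1, a methionine sulfoxide reductase, read 603 in the Cbs null sample and 893 in the control sample, the lowest of these 11. Selenos, a protein of endoplasmic reticulum quality control, read 872 in the Cbs null sample and 704 in the control sample, the highest. Its other probe sets stood at 0.07 and, at the weakest signal, 0.92 (129 in the Cbs null sample and 68.1 in the control sample). The other 9 of these genes, among them Selenop, Selenow, Selenof and Sephs2, lay between -0.10 and 0.30 in their brightest probe sets. Dimmer probe sets reached -0.51 for Sephs2, and -0.21 and 0.38 for Txnrd3.

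Probe sets of a gene did not always give the same direction. Of the 15 measured antioxidant genes with a further measured probe set, 12 had all of them on the same side of 0, the exceptions being Gsr, Gstm1 and Prdx2. A probe set shared by Gsta2, Gsta1 and the predicted gene Gm3776 read 15.5 in the Cbs null sample and 15.9 in the control sample, below the floor in both.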
